A study of Mus musculus with 16 samples.

Results

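The regions described here were the ATAC-seq peaks at promoters of protein-coding genes. ATAC-seq uses a transposase that inserts adapters into open chromatin, so that a peak marks a stretch of DNA that was accessible in the cells. For each of 16 libraries, the 49000 peaks of lowest p on chromosomes 1 to 19 and X were kept, and any kept peaks that shared 1 bp or more were joined over the libraries, which gave 90549 regions. Of these, 16678 lay within 1 kb of a transcription start site (TSS) of a protein-coding transcript in the GENCODE M21 annotation of mm10 and are called promoter regions. The other 73871 regions are called other regions. The p of the peaks decided which regions exist, and position alone decided which of them are members. With all deposited peaks 26924 of 182610 regions would be members, and with 25000 peaks per library 12194 of 43665.

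The cells were mouse fetal liver progenitors, depleted of cells with lineage markers and immortalized with a retrovirus carrying an estrogen-regulated form of HoxB8 (hi cells). HoxB8 is held active by β-estradiol in the medium and arrests differentiation, and all 4 groups carried it and were grown with stem cell factor. The hi-77+/+ cells had both copies of an enhancer 77 kb upstream of Gata2, and the hi-77-/- cells lacked them. Gata2 encodes a zinc finger transcription factor of hematopoietic stem and progenitor cells, mast cells and megakaryocytes. Cells were infected for 3 days with a retrovirus that also carried GFP, and GFP+ cells were sorted. The virus was empty in hi-77+/+ and hi-77-/- cells (hi-77+/+ empty and hi-77-/- empty), or carried GATA2 (hi-77-/- GATA2) or the 9aa-Ins variant (hi-77-/- 9aa-Ins), in which 9 amino acids are inserted between the zinc fingers. Libraries named below by GATA2 or 9aa-Ins alone are hi-77-/- libraries. Each group had 4 libraries, described as biological replicates. The vectors were MSCV-based retroviruses carrying murine cDNA, so this protein came from inserted copies and not from the Gata2 locus. The hi-77+/+ and hi-77-/- cells were separate cell populations, so the enhancer deletion and any other difference between these populations cannot be told apart.

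Promoters are the stretches of DNA around a TSS where the general transcription machinery and RNA polymerase II assemble, and many of them are kept free of nucleosomes even in cells that transcribe the gene weakly. Promoters of housekeeping genes usually lie in CpG islands, which are rich in G, C and unmethylated CG pairs and carry sites for factors such as Sp1 and NRF1. Promoters of tissue-restricted genes more often have few CG pairs and are opened by lineage factors. In blood cells GATA factors bind words such as AGATAA, and PU.1, an ETS factor of myeloid and B cells, binds purine-rich words such as GAGGAAG.

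The files gave peaks without read totals, so depth is unknown. The deposited lists held 49852 to 111743 peaks per library, and the −log10 p of the last kept peak ran from 5.35 to 11.7. The deleted enhancer served as a check of the labels. Between 76 and 78 kb upstream of the Gata2 TSS, peaks covered 1196 to 1414 bp in hi-77+/+ empty libraries, 0 to 609 bp in hi-77-/- empty, 0 to 246 bp in GATA2 and 0 to 607 bp in 9aa-Ins libraries. Peaks covered 0% of the Gata2 coding bases in hi-77+/+ empty, 7.64 to 8.75% in hi-77-/- empty, 44.4 to 63.2% in GATA2 and 89.9 to 99.6% in 9aa-Ins libraries. Reads of the viral insert and of the Gata2 exons cannot be told apart. Any 2 libraries had at most 59 peaks with identical positions and values.

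Sequences of 300 bases around the median peak summit are shown for 10 promoter regions that the results turn on, in the direction of transcription, from RefSeq's GRCm38 (mm10) genome. The first pair shows CpG-rich promoters, with each CG in capitals. Polr2a, the largest subunit of RNA polymerase II, had a peak in all 16 libraries (chr11:69758614-69758913, minus strand) and holds 28 CG pairs. Bag3, a partner of the Hsp70 chaperone, had a peak only in hi-77+/+ empty libraries (chr7:128523423-128523722, plus strand) and holds 16 CG pairs.
Polr2a: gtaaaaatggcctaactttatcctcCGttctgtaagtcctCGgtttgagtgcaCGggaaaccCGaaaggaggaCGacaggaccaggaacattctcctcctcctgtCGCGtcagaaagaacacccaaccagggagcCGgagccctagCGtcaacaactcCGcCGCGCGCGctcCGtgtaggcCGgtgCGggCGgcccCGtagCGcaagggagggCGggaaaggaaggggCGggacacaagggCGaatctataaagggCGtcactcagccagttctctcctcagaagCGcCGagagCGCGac
Bag3: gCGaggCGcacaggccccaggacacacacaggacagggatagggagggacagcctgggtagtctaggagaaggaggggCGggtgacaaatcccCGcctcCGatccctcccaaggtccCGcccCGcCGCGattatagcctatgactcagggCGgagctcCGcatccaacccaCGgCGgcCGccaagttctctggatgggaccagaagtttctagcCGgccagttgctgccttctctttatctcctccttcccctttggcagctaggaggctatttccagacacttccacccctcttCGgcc

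The other 8 windows belong to promoter regions that differed between groups, and the capitals mark GATA words (the word AGATAA or AGATAG, and likewise TGATAA or TGATAG) and the PU.1-type word GAGGAAG on either strand. Aim2, a cytosolic DNA sensor, was open in all hi-77-/- groups (chr1:173420377-173420676, plus strand) and has 1 GATA and 1 PU.1-type word. Ndst2 (chr14:20731042-20731341, minus strand), Sgms1 (chr19:32196325-32196624, minus strand), Mylk3 (chr8:85380957-85381256, minus strand), Gata1 (chrX:7967838-7968137, minus strand) and Cpa3 (chr3:20242139-20242438, minus strand) had a peak in all 4 hi-77-/- GATA2 libraries and in no other hi-77-/- library. Their windows hold 1, 2, 2, 0 and 1 GATA words. Cd79a, a signalling chain of the B cell receptor (chr7:24897231-24897530, plus strand), had no peak in hi-77-/- GATA2 libraries and holds neither word. Stfa1, a cysteine protease inhibitor of neutrophils (chr16:36276813-36277112, plus strand), had a peak only in hi-77-/- 9aa-Ins libraries and holds 2 GATA words and 1 PU.1-type word.
Aim2: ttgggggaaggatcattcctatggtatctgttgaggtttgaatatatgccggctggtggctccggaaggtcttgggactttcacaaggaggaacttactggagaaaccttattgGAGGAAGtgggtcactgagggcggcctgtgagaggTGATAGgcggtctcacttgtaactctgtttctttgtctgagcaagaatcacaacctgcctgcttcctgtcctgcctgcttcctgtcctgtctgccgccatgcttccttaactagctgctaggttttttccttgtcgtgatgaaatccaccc
Ndst2: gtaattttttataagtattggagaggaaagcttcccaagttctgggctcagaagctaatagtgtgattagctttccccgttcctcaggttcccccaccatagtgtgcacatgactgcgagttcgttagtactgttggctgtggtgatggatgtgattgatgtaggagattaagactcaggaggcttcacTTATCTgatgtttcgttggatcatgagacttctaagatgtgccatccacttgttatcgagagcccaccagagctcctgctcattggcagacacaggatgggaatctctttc
Sgms1: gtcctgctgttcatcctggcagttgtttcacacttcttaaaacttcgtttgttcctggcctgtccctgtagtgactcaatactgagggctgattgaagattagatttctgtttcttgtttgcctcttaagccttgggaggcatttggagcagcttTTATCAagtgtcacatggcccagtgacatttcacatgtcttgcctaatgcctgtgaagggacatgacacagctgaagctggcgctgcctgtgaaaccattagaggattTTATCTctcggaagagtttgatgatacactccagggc
Mylk3: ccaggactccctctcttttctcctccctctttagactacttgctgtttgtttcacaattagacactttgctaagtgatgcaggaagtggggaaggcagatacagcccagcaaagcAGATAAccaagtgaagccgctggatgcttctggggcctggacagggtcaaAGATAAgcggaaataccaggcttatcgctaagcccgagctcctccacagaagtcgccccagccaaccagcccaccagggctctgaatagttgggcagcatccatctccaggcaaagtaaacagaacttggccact
Gata1: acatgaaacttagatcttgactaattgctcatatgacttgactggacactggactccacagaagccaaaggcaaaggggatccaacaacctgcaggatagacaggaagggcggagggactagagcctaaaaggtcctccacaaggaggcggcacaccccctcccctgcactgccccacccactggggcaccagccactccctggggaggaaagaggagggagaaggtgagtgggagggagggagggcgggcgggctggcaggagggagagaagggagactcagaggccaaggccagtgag
Cpa3: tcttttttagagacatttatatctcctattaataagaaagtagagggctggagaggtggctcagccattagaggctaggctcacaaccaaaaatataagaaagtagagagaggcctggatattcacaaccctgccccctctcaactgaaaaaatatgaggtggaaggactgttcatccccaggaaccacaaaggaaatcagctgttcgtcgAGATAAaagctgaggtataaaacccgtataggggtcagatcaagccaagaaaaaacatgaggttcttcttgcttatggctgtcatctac
Cd79a: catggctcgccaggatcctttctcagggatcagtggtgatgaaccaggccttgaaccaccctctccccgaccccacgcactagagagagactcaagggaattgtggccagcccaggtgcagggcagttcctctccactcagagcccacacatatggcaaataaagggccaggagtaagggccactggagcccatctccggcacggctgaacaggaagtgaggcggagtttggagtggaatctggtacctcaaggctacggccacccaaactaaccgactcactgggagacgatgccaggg
Stfa1: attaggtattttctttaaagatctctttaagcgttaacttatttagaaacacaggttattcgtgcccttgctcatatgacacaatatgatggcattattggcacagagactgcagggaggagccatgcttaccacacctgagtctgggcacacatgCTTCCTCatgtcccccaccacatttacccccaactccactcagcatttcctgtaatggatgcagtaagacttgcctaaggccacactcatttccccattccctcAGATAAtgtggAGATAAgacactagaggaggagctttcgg

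A larger share of promoter than of other regions was open in every library. Of the 16678, 9988 (59.9%) had a peak in all 16 libraries, 4732 (28.4%) in 2 to 15 and 1958 (11.7%) in 1 library. Among other regions 11181 (15.1%) had a peak in all 16 libraries, 45518 (61.6%) in 2 to 15 and 17172 (23.2%) in 1. Regions open throughout were thus the largest class among promoters, and regions seen in some libraries the largest among the rest. The share open in all 16 libraries depended on the number of peaks kept. With all deposited peaks it was 40.1% of promoter and 10.3% of other regions, and with 25000 peaks 65.4% and 14.9%.

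**Figure D1:**
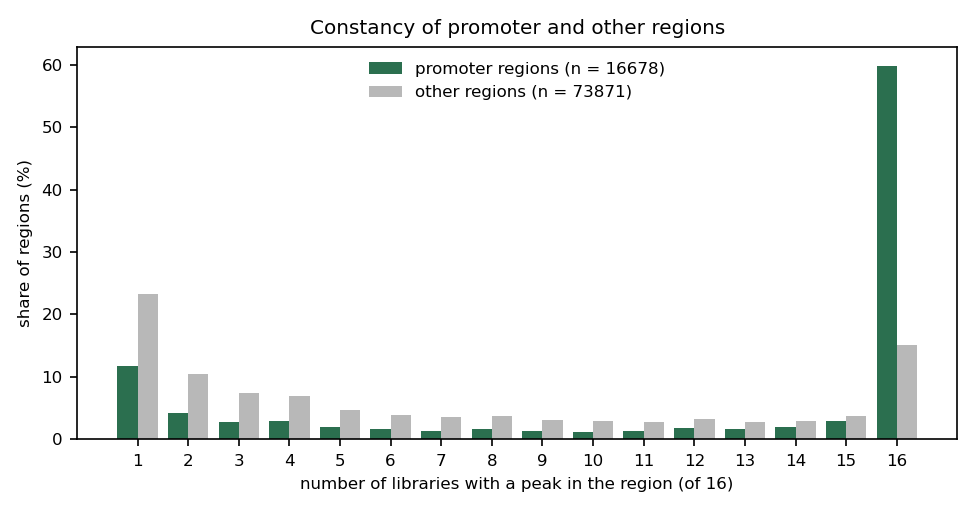
Share of promoter regions (n = 16678) and of other regions (n = 73871), in percent, by the number of libraries with a peak, from 1 to 16. The promoter bars stand highest at 16 libraries (59.9%), where the bar of other regions is at 15.1%.

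Whether a region held a TSS divided the promoter regions further. The 11474 regions that spanned a TSS had a median width of 1039 bp, and 80.8% of them had a peak in all 16 libraries. The 5204 regions beside a TSS had a median width of 235 bp, and 13.7% had a peak in all 16 libraries, whereas 33.3% had a peak in 1. Values were alike on both sides of the distance limit. Regions 901 to 1000 bp from a TSS (557 regions) were open in all libraries in 16.7% of cases, with a median width of 238 bp, and regions 1001 to 1100 bp away (534 regions) in 16.9%, with a median width of 234 bp.

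Promoter regions were also wider and of better rank. Rank is the place of a region's best peak in its library by −log10 p, from 1 (lowest p) to 49000. Merged promoter regions had a median width of 794 bp (middle 50% of regions 327 to 1241 bp) and a median rank of 16215, and other regions 238 bp (148 to 408 bp) and 36663. The promoter regions open in all 16 libraries had a median width of 1126 bp and a median rank of 7629. Those in 2 to 15 libraries stood at 347 bp and 36465, and those in 1 library at 117 bp and 44153. Merged width can only grow with the number of libraries that have a peak, so these widths are a description of the regions.

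The share of constant regions was also given at like width and rank. Between 800 and 1600 bp, 93.9% of promoter regions and 74.4% of other regions had a peak in all 16 libraries. At 1600 bp or more the shares were 99% and 92.9%. Among regions with a median rank between 20000 and 30000, the shares were 48.2% for promoter and 25.8% for other regions, and between 10000 and 20000 they were 92.9% and 72.1%. Up to rank 10000 almost all regions were constant in both sets, with 99.8% and 96.8%. Between 400 and 800 bp the shares were 55% and 34.3%. In narrower regions the order was the reverse, with 8.11% of promoter and 9.51% of other regions between 200 and 400 bp, and 0.0397% and 0.977% below 200 bp.

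Rank itself varied among libraries even for constant promoters. The gap between the best and the worst rank of a constant promoter region over the 16 libraries had a median of 7860 places. Of the 9988 regions, 4097 (41%) stayed within the first 10000 places in every library, and 559 fell beyond place 40000 in at least 1 library.

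Within each library, promoter regions were compared with other regions of the same library. Peak width is here the width of the widest peak that a library had in a region. A region with several peaks thus gives only its widest, which can raise the value of regions that hold more peaks. The median peak width was 605 ± 102 bp (SD, n = 16) in promoter regions and 217 ± 42.6 bp in other regions. The difference of 388 bp ranged from 212 to 511 bp. The median rank was 9973 ± 415 in promoter and 27988 ± 349 in other regions. A peak was present in 74.4 ± 1.34% of promoter regions and 43.4 ± 1.95% of other regions, a difference of 31 percentage points (28.2 to 33.5). All 3 differences had the same direction in 16 of 16 libraries, with an adjusted p of 3.05e-05 in a two-sided exact sign-flip permutation test over libraries, the smallest value that 16 libraries can give. The rank difference follows in part from order within one list, in which a better place of one set is a worse place of the other.

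**Figure D2:**
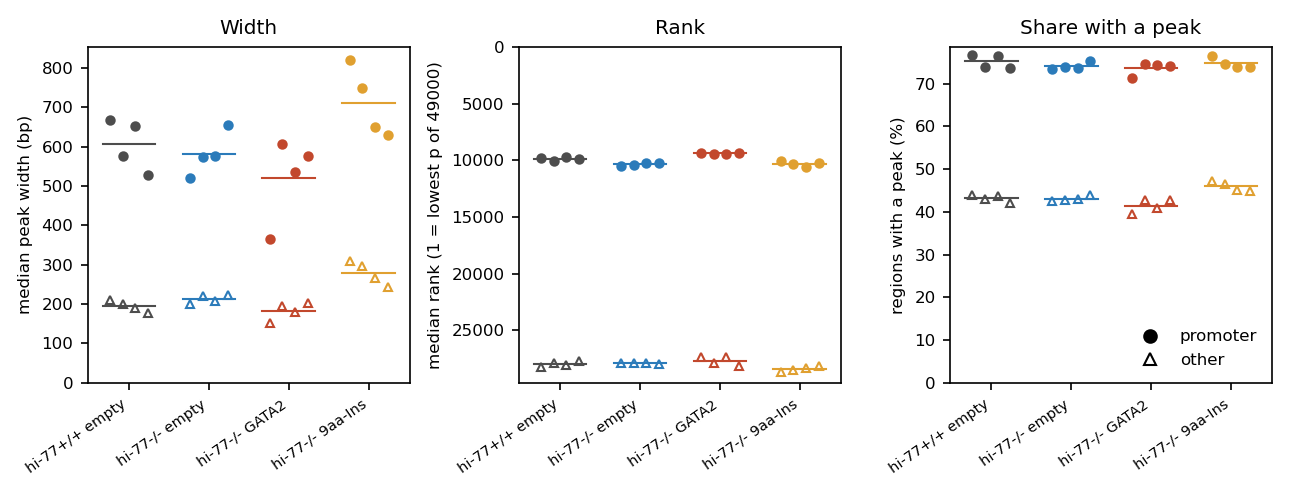
Median width in bp of the widest peak of a region, median rank (1 is the lowest p) and percent of regions with a peak in each of the 16 libraries. Filled circles are promoter regions, open triangles are other regions, and lines are group means. Promoter values lie apart from the other values in all panels, and promoter widths are lowest on average in hi-77-/- GATA2 libraries (521 bp) and highest in hi-77-/- 9aa-Ins libraries (712 bp).

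With an equal number of peaks kept in every library, the number of open promoters was similar in the 4 groups. Keeping an equal number limits how far these counts can differ, so they cannot show whether the groups had equally many open promoters. A peak was found in 12540.5 ± 266 promoter regions (SD, n = 4) of hi-77+/+ empty libraries, 12353 ± 151 of hi-77-/- empty, 12278 ± 257 of hi-77-/- GATA2 and 12461 ± 191 of hi-77-/- 9aa-Ins libraries, and the ranges of all groups overlapped. Median peak width in promoter regions, by the widest peak of each region, was 607 ± 65.8, 581 ± 55.6, 521 ± 108 and 712 ± 88.7 bp in the same order. Of the 1000 best peaks, 77.1 ± 1.18%, 69.8 ± 3.72%, 72.6 ± 2.52% and 73.6 ± 2.37% lay in promoter regions. No test was made between groups on these values. With all deposited peaks, the mean number of open promoter regions was 16186 in hi-77+/+ empty libraries. It was 13988 in hi-77-/- empty and 13564 in hi-77-/- GATA2 libraries, and the hi-77-/- 9aa-Ins mean is given in the last section. The deposited lists differed in length, so these means do not settle the question either.

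The sets of open promoters were more alike than the sets of other regions. The Jaccard index (regions open in both of 2 libraries over regions open in either) averaged 0.874, 0.897, 0.874 and 0.916 within the groups, in the order given above, for promoter regions, and 0.625, 0.671, 0.617 and 0.712 for other regions. Between groups, promoter regions gave 0.824 for hi-77+/+ empty with hi-77-/- empty, 0.857 for hi-77-/- empty with GATA2 and 0.894 for hi-77-/- empty with 9aa-Ins libraries. The corresponding values for other regions were 0.479, 0.522 and 0.636. The value for hi-77-/- empty with 9aa-Ins libraries lay within the range of the 4 within-group values.

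Seen by gene, 12889 of 21705 protein-coding genes (59.4%) had a promoter region, and 10372 (47.8%) had 1 that was open in all 16 libraries. Another 2517 genes had regions in 1 to 15 libraries only, and 8816 had none. Several regions could belong to 1 gene, because alternative TSSs were counted, and 3922 genes had at least 2. Plec, a cytoskeletal linker with many first exons, had 11 regions, and Lhfpl2 had 9. Conversely, 1635 regions (9.8%) served 2 or more genes, and 79.5% of these were open in all libraries with a median width of 1127 bp, against 57.8% and 754 bp for regions of 1 gene. Of the 6690 promoter regions that were not open in all libraries, 3422 (51.2%) belonged to a gene that had another region open in all 16, and for regions of a single library this was 1287 (65.7%).

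Gene families with housekeeping roles were open throughout. Constant promoters were found for 78 of 81 cytosolic ribosomal protein genes (median rank 5147), 74 of 77 mitochondrial ribosomal protein genes, 37 of 39 proteasome genes, 35 of 36 genes of respiratory complex I and 25 of 25 cell cycle genes (median rank 3854). Histone genes had constant promoters in 64 of 67 cases, with a median rank of 3109.5, and heat shock genes in 14 of 16, with a median rank of 1617. Histone genes lie in clusters of close copies, so their peaks may hold shared reads. Zinc finger genes of the Zfp series were intermediate, at 248 of 365. Families restricted to other tissues were almost closed. No olfactory receptor gene of 1095 had a constant promoter, and 1059 had no promoter region at all. The count was 1 of 326 for vomeronasal receptors, 0 of 49 for keratins and 0 of 42 for defensins. Hox genes, which are not counted among these families, had a constant promoter in 1 of 39 cases, and 8 had any region. Hox genes with a peak per library numbered 1 or 2 in hi-77+/+ empty and 3 to 7 in hi-77-/- empty libraries. They numbered 2 to 5 in hi-77-/- GATA2 and 1 to 5 in hi-77-/- 9aa-Ins libraries. Cytokine families lay between, with 6 of 56 chemokine genes and 16 of 82 interleukin genes and receptors.

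Markers of blood progenitors were open, and those of other fetal liver cells mostly were not. Of 20 progenitor markers, 17 had a promoter open in all 16 libraries, and the exceptions were Mpo (15 libraries), Cd52 (15) and Itgam (4). Among 12 hepatocyte markers, for the main epithelial cell of the fetal liver, 0 were constant and 9 had no promoter region, while Apob had a peak in 12 libraries, Trf in 4 and Ahsg in 1. Endothelial and stromal markers were constant in 1 of 12 cases (Pdgfra). Constant promoters were held by 6 of 16 erythroid markers, 2 of 10 megakaryocyte, 1 of 12 mast cell and basophil, 3 of 14 neutrophil, 8 of 14 monocyte and dendritic, 4 of 15 B lymphoid and 2 of 12 T lymphoid markers.

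The number of marker promoters with a peak per library differed between groups in some of these lists. Mast cell and basophil markers with a peak numbered 2 in every hi-77+/+ empty library, 2 or 3 in hi-77-/- empty, 5 to 7 in hi-77-/- GATA2 and 2 or 3 in hi-77-/- 9aa-Ins libraries. Neutrophil markers numbered 6 to 9, 7 to 9, 7 to 9 and 11 or 12 in the same order. Monocyte and dendritic markers numbered 8 to 10, 12 or 13, 10 to 12 and 12 or 13, and B lymphoid markers 5 to 8, 7 to 9, 5 and 7 or 8. Erythroid markers numbered 7 to 9, 6 to 9, 7 or 8 and 6, megakaryocyte markers 3 or 4, 3 to 5, 3 to 5 and 3 to 5, T lymphoid markers 2 to 4, 4 or 5, 4 and 4, and hepatocyte markers 1, 0 or 1, 0 to 3 and 1 or 2. The part of other cell types in the results was not tested. In bulk cells, fewer cells with an open promoter and less accessibility per cell cannot be told apart.

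The constant promoters of best rank and greatest width held several repeats. By median rank the first were Gm10800 (1), Gm21738 (6), Gm10801 (6.5), Gm10719 (23.5) and Hjurp (67), the chaperone of the centromeric histone. Hjurp ranked between 33 and 95 in the 16 libraries. The predicted genes Gm10800, Gm21738, Gm10801 and Gm10719 have near-identical copies, so their peaks are uncertain. The widest constant region was the Gm10719 cluster (chr9:2999961-3038473, 38513 bp), followed by Gm21887 on chromosome X (7721 bp), the region shared by Iqcn and Jund on chromosome 8 (7575 bp), a histone cluster at Hist1h2bf on chromosome 13 (7572 bp) and the region at Brd2 on chromosome 17 (6492 bp). Jund is a component of the AP-1 transcription factor and Brd2 binds acetylated histones.

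Few promoters were gained or lost between groups. A region was called gained where all 4 libraries of the first group had a peak and 0 of 4 of the second, and lost in the reverse case. The rule gives no p. The comparisons share the hi-77-/- libraries and are not independent of each other. A peak counts as absent when it is not among the 49000 kept, and the full deposited lists were searched for weaker peaks besides.

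**Figure D3:**
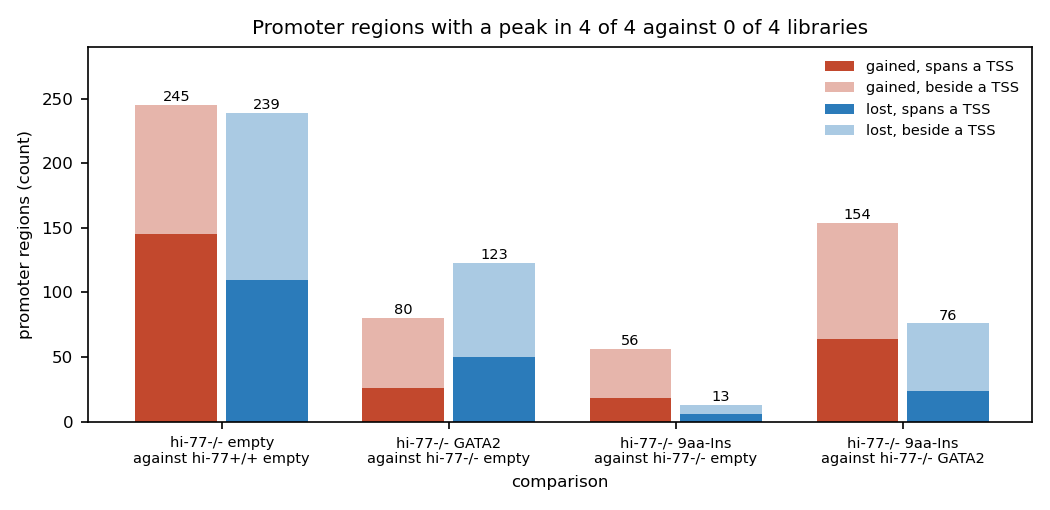
Number of promoter regions gained and lost in each of the 4 comparisons, with bars divided into regions that span a TSS and regions beside one. The comparison of hi-77-/- empty with hi-77+/+ empty has the tallest bars (245 gained and 239 lost) and hi-77-/- 9aa-Ins against hi-77-/- empty the shortest (56 and 13).

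Loss of the enhancer was addressed by hi-77-/- empty against hi-77+/+ empty libraries. Of the promoter regions 245 (1.47%) were gained and 239 (1.43%) lost, where over all regions the shares were 3.59% and 2.11%. The shares in promoter and other regions were not compared by a test. A region with a peak in 4 of 4 libraries of both groups was far more common, at 10330 (61.9%). Just short of the rule, 141 regions had a peak in all 4 hi-77-/- empty libraries and 1 hi-77+/+ empty library, and 145 in 3 and 0. In the other direction 141 and 207 regions fell short in these ways. Of the gained regions 145 spanned a TSS, and of the lost ones 110. The gene had another region open in all 16 libraries for 31% of gained and 44.8% of lost regions. No peak was present even in the full lists of the other group for 71 gained and 104 lost regions. With every deposited peak used, 162 were gained and 456 lost, and where peaks had to cover 50% of a region 211 and 418.

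The gained promoters of best rank were those of Cstf2t, Aim2, Wfs1, Prelid2 and Igll1. The Cstf2t region (chr19:31082383-31083375), for a testis-enriched subunit of the polyadenylation machinery, ranked 2492, 2846, 2314 and 3784 in hi-77-/- empty libraries and had no peak in hi-77+/+ empty libraries, also not in their full lists. It stayed at 1790, 2906, 2920 and 1214 with GATA2 and at 3493, 3241, 1194 and 3129 with 9aa-Ins. The 12 hi-77-/- libraries thus all had a strong peak. Aim2 (chr1:173420272-173420752) ranked 4801, 4621, 2333 and 5286 in hi-77-/- empty libraries, 7582, 3252, 8601 and 5849 with GATA2 and 3753, 3798, 4430 and 3644 with 9aa-Ins, and 1 hi-77+/+ empty library had a weaker peak in its full list. Wfs1, a membrane protein of the endoplasmic reticulum (chr5:36988640-36989527), ranked 5757, 6205, 3586 and 3866 in hi-77-/- empty libraries, and 3 hi-77+/+ empty libraries had a weaker peak. Prelid2 (chr18:41950845-41951635) ranked 8029, 7870, 9630 and 6659, also with weaker peaks in 3 hi-77+/+ empty libraries.

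Igll1 encodes the λ5 chain of the pre-B cell receptor, and its region (chr16:16863698-16864444) was the only one of these 5 whose ranks with GATA2 did not overlap those without. It ranked 13563, 9409, 8316 and 9211 in hi-77-/- empty libraries, 25559, 30236, 48477 and 28086 with GATA2 and 17794, 13960, 11044 and 10300 with 9aa-Ins. The GATA2 ranks of this region were the worst of the hi-77-/- libraries. A wider Igll1 region beside a TSS (chr16:16864815-16866417) was open in all 16 libraries. It ranked 14341, 14943, 13197 and 36860 in hi-77+/+ empty and 5561, 9410, 10237 and 5513 in hi-77-/- empty libraries. With GATA2 the wider region ranked 6447, 6873, 5925 and 5434, which overlapped its hi-77-/- empty ranks. Among genes of the marker lists, the B lymphoid genes Igll1, Rag1 and Rag2, the monocyte and dendritic genes Csf1r and Siglech, and Mcpt8 of basophils had a gained region. Rag1 and Rag2, whose products cut antigen receptor genes, differed in kind. The Rag1 region (chr2:101649448-101649687, shared with B230118H07Rik) ranked 35366, 29984, 42407 and 43162 in hi-77-/- empty libraries and had no kept peak elsewhere, with weaker peaks in the full lists of 1 GATA2 and 3 9aa-Ins libraries, whereas for Rag2 the region at the TSS was open in all 16 libraries and a weak one beside it was gained.

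The lost promoters of best rank were those of Bag3, Snapc2, Tmem218, Cers4 and Fam129a. Bag3 (chr7:128523359-128524512) ranked 4696, 5799, 4535 and 3535 in hi-77+/+ empty libraries and had no kept peak in the 12 hi-77-/- libraries, with a weaker peak in 1 hi-77-/- empty library. A region 641 bp downstream of the nearest TSS of Snapc2, a subunit of the complex that transcribes small nuclear RNAs (chr8:4254060-4254392), ranked 17454, 6341, 7101 and 4704, and Cers4, a ceramide synthase (chr8:4492666-4493975), ranked 9743, 10882, 7695 and 9516. Both were on chromosome 8 and had no kept peak in any hi-77-/- library. Fam129a (chr1:151571198-151571880) ranked 10168, 18585, 8047 and 9216 and had no peak in the full lists of hi-77-/- empty libraries. Tmem218 (chr9:37207954-37208553) ranked 9789, 9959, 4570 and 8823 in hi-77+/+ empty libraries, had no kept peak but a weaker one in 3 of 4 hi-77-/- empty libraries, and had kept peaks with low ranks in 3 of 4 GATA2 and 4 of 4 9aa-Ins libraries. Weaker peaks were also present in 1 hi-77-/- empty library for Snapc2 and in 2 for Cers4. Among genes of the marker lists, regions of Tal1 and Fli1 were lost, beside promoters of these genes that stayed open.

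Lost promoters were uneven over chromosomes, with shares from 0.574% on chromosome 11 to 3.68% on chromosome 8. Chromosome 8 held 36 of the 239 lost regions, 3.68% of its 977 promoter regions, and 4 gained ones. It was followed by chromosome 13 with 18 of 611 (2.95%) and chromosome 18 with 9 of 372 (2.42%). Chromosome 19 held 11 lost regions, 1.85% of 593, and 6 gained ones. Without chromosomes 8 and 19, which were left out together as an alternative, 235 regions were gained and 192 lost. The part of chromosome-wide differences in these calls was not tested.

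Expression of GATA2 was addressed by hi-77-/- GATA2 against hi-77-/- empty libraries. Of the promoter regions 80 (0.48%) were gained and 123 (0.737%) lost, against 1.73% and 2.23% of all regions. Of these, 26 gained and 50 lost regions spanned a TSS. No peak was present in the full lists of the other group for 41 gained and 50 lost regions. With peaks required to cover 50% of a region, 53 were gained and 201 lost.

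Gained promoters were led by Ndst2, Sgms1, Mrvi1, Mylk3 and Ston2. Ndst2, which sulfates heparin in mast cell granules (chr14:20730930-20731588), ranked 14563, 13636, 13638 and 14829 in hi-77-/- GATA2 libraries and had no kept peak in the other 12. Sgms1, a sphingomyelin synthase (chr19:32196217-32196630), ranked 14766, 14665, 8555 and 15883, likewise with no kept peak in the other groups. Mylk3, a myosin light chain kinase known from heart muscle (chr8:85380824-85381311), ranked 16735, 21898, 16304 and 17374, and 1 hi-77+/+ empty library also had a peak, at 32615. These 3 had no peak in the full lists of hi-77-/- empty libraries. Mrvi1 (chr7:110926639-110926876, 236 bp upstream) ranked 19926, 17263, 16256 and 15410, and Ston2 (chr12:91743741-91744356) 15684, 20612, 15478 and 18850, with 3 hi-77-/- 9aa-Ins libraries between 33303 and 45925.

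Among the gained promoters were 2 of 12 mast cell and basophil markers, Cpa3 and Tpsab1, and 1 of 16 erythroid markers, Gata1. Gata1, a GATA factor of erythroid, megakaryocytic and mast cells (chrX:7967782-7968174), ranked 19129, 39557, 25771 and 23878 in hi-77-/- GATA2 libraries. Cpa3, a carboxypeptidase of mast cell granules (chr3:20242012-20242404), ranked 23668, 28048, 26244 and 22365, and Tpsab1, a mast cell tryptase (chr17:25345450-25345890), 42065, 24747, 48701 and 25778. All 3 had no kept peak in the other 12 libraries. Prss34, another granule protease (chr17:25298236-25298477), followed the same pattern in 3 of 4 hi-77-/- GATA2 libraries and so missed the rule. Hdc, which makes histamine (chr2:126618543-126619502), was open in hi-77+/+ empty libraries at 16986, 11581, 28285 and 26421, in 1 of 4 hi-77-/- empty libraries at 35322, and in hi-77-/- GATA2 libraries at 13851, 14800, 21566 and 18117. With 9aa-Ins it had a peak in 3 of 4 libraries, at 35251, 46311 and 43910, beyond every rank in the hi-77-/- GATA2 libraries.

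Lost promoters with GATA2 were led by Btnl1, Egfl7, Map7d2, Plxnb2 and Prx. Btnl1, a butyrophilin-like protein (chr17:34376976-34377892), ranked 11193, 12547, 7773 and 15690 in hi-77-/- empty libraries and 24541, 21208, 14390 and 12816 with 9aa-Ins. Map7d2, which binds microtubules (chrX:159459013-159459460), ranked 12872, 13353, 9692 and 16547 in hi-77-/- empty libraries and was also open in hi-77+/+ empty libraries, at 31204, 25699, 23180 and 37553. For Egfl7 (chr2:26578269-26579024), Plxnb2 (chr15:89171481-89172032) and Prx (chr7:27506945-27507378) the region lay 990, 793 and 423 bp upstream of the TSS. All 5 had peaks in all 4 9aa-Ins libraries. In hi-77+/+ empty libraries Plxnb2 had kept peaks at 17958, 32258 and 38082, Btnl1 had 1 at 27942 and Prx 1 at 41708. Egfl7 had no kept peak there. In the full GATA2 lists a weaker peak was present in 3 libraries for Egfl7, 2 each for Map7d2 and Prx, 1 for Btnl1 and 0 for Plxnb2. Regions of Csf1r, Cd79a, Rag1 and Rag2 were lost as well. Csf1r, the receptor of macrophage colony-stimulating factor (chr18:61105482-61106168), ranked 23711, 29491, 41464 and 42336 in hi-77-/- empty libraries and 24587, 32084, 32624 and 22575 with 9aa-Ins and had no kept peak in hi-77+/+ empty or hi-77-/- GATA2 libraries. Cd79a (chr7:24897136-24897676) ranked 14019, 19447, 22054 and 26339 in hi-77-/- empty libraries and 31615, 19014, 26111 and 35063 with 9aa-Ins. Unlike Csf1r, it also had a kept peak in 3 of 4 hi-77+/+ empty libraries, at 48117, 47682 and 21951.

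The 9aa-Ins variant was set against hi-77-/- empty libraries as well, and 56 promoter regions (0.336%) were gained and 13 (0.0779%) lost, where all regions gave 1.35% and 0.171%. Of these, 18 and 6 spanned a TSS. No peak was present in the full lists of the other group for 19 gained and 0 lost regions, so every lost region had a weaker peak there. With every deposited peak used, 163 were gained and 0 lost, and with peaks of at least 1 kb left out, 57 and 77. Without hi-77-/- empty replicate 2 the gained regions numbered 85. The lost regions rose to between 20 and 28 when 1 of hi-77-/- empty replicates 1, 2 and 3 or hi-77-/- 9aa-Ins replicates 1, 2 and 4 was left out.

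Among the leading gained regions were those of Nin, Stfa1, Il23a and Fam118b. Stfa1 (chr16:36276856-36277187) ranked 21172, 20241, 20574 and 16462 in hi-77-/- 9aa-Ins libraries and had no kept peak in the other 12, nor any in the full lists of hi-77-/- empty libraries. Il23a, a subunit of the cytokine interleukin 23 (chr10:128298033-128298731), ranked 26839, 21901, 16915 and 22172, with weaker peaks in 3 hi-77-/- empty libraries. Nin, a centrosome protein (chr12:70102430-70102860), ranked 20060, 17740, 11493 and 13223 with 9aa-Ins and 20449, 22315, 12720 and 18832 with GATA2, so that the groups overlapped. Fam118b (chr9:35236268-35237188) had a region 823 bp upstream of the TSS. The lost regions of best rank, at Gal3st2c, Sec14l2, Fam129c, Tpd52 and Rabgap1l, all ranked 23232 or worse in hi-77-/- empty libraries. Rag1 was the only gene of the marker lists among the lost ones.

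Of 14 neutrophil markers, 0 were gained with 9aa-Ins against hi-77-/- empty libraries, and of their 4 constant regions 0 ranked higher and 0 lower. Mpo, Elane and Csf3r are given as examples chosen after their values were seen. Mpo is the myeloperoxidase of neutrophil granules and also stands on the progenitor list. Its region (chr11:87792965-87794839) ranked 33590, 42100 and 37313 in 3 hi-77+/+ empty libraries and had no kept peak in the other. It ranked 7367, 4805, 7648 and 5168 in hi-77-/- empty, 18541, 14360, 15423 and 9562 in hi-77-/- GATA2 and 4219, 2238, 2808 and 1988 in hi-77-/- 9aa-Ins libraries. The 4 groups did not overlap. Elane, neutrophil elastase (chr10:79886069-79886545), ranked 19124, 20894, 16900 and 24516 with 9aa-Ins and had a peak in 1 library of each other group, at 42851 in hi-77+/+ empty, 33694 in hi-77-/- empty and 33634 in hi-77-/- GATA2. A further Elane region beside a TSS (chr10:79885023-79885323) did not share this pattern. It ranked 38956, 48110 and 33034 in 3 9aa-Ins libraries and 45161, 37552 and 46865 in 3 GATA2 libraries. It also had a peak in 1 hi-77+/+ empty library (35798) and 1 hi-77-/- empty library (33434). Csf3r, the receptor of granulocyte colony-stimulating factor (chr4:126024398-126024951), ranked 38039, 37186, 35978 and 28475 with 9aa-Ins, with a peak in 1 hi-77+/+ empty and 1 hi-77-/- empty library.

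Between 9aa-Ins and GATA2, 154 promoter regions (0.923%) were gained and 76 (0.456%) lost, against 2.97% and 1.47% of all regions. Of these, 64 and 24 spanned a TSS. With all deposited peaks 333 were gained and 26 lost, and with peaks of at least 1 kb left out 151 and 216. The leading gained regions were those of Map7d2, Egfl7 and Btnl1, with Sh3tc2 (chr18:61977201-61977608) and Gm45021 (chr6:48589201-48589650). Sh3tc2 ranked 17132, 17201, 22791 and 18793 with 9aa-Ins, and Gm45021 ranked 26472, 18224, 19140 and 19962. The leading lost regions were Ndst2, Sgms1, Mrvi1 and Mylk3, with March2, a membrane-bound ubiquitin ligase (chr17:33713242-33713631). March2 ranked 32513, 17898, 12880 and 11978 with GATA2. Of the marker lists Csf3r, Csf1r and Cd79a were gained and Gata1, Cpa3 and Tpsab1 lost.

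Over the 4 groups together, some promoter regions were open in all libraries of some groups and in none of the others. Open in hi-77+/+ empty libraries alone were 136 regions, 69 of them at a TSS and 20 of them on chromosome 8, and in all hi-77-/- groups alone 88, of which 72 held a TSS. These were 0.815% and 0.528% of promoter regions, and the same patterns held 1.1% and 0.912% of other regions. Open with GATA2 alone were 37 (0.222%, beside 0.927% of other regions), with 9aa-Ins alone 21 (0.126%, beside 0.594%), and in hi-77-/- empty alone 6 (0.036%, beside 0.0961%). In hi-77-/- empty and 9aa-Ins libraries, but not in hi-77+/+ empty or GATA2 libraries, 33 regions (0.198%, beside 0.898% of other regions) were open, among them Csf1r, Trem2, Irf1 and Il18. Open in hi-77+/+ empty and GATA2 libraries alone were 9 regions (0.054%, beside 0.0541% of other regions), among them those at Ssx2ip, Unc13a, Plscr2, Srgn, Lgr5, Olfr9, Spire1 and Psat1. Srgn encodes serglycin, the proteoglycan core of secretory granules. Open in hi-77+/+ empty, hi-77-/- empty and 9aa-Ins libraries but not with GATA2 were 8 regions (0.048%, beside 0.137% of other regions), at Mymk, Tlr2, Gpr153, Klrd1, Ccdc8, Nrp1, Odf3l1 and Map7d2. The genes named from these 2 small sets and from the 33 regions were chosen after their values were seen. With GATA2 and 9aa-Ins alone 3 regions were open. In each of the following patterns 1 region was open: hi-77-/- empty and GATA2 alone, both empty groups alone, and all groups but hi-77-/- empty. Regions open in hi-77+/+ empty and 9aa-Ins libraries alone numbered 0, as did those open in all groups but 9aa-Ins.

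**Figure D4:**
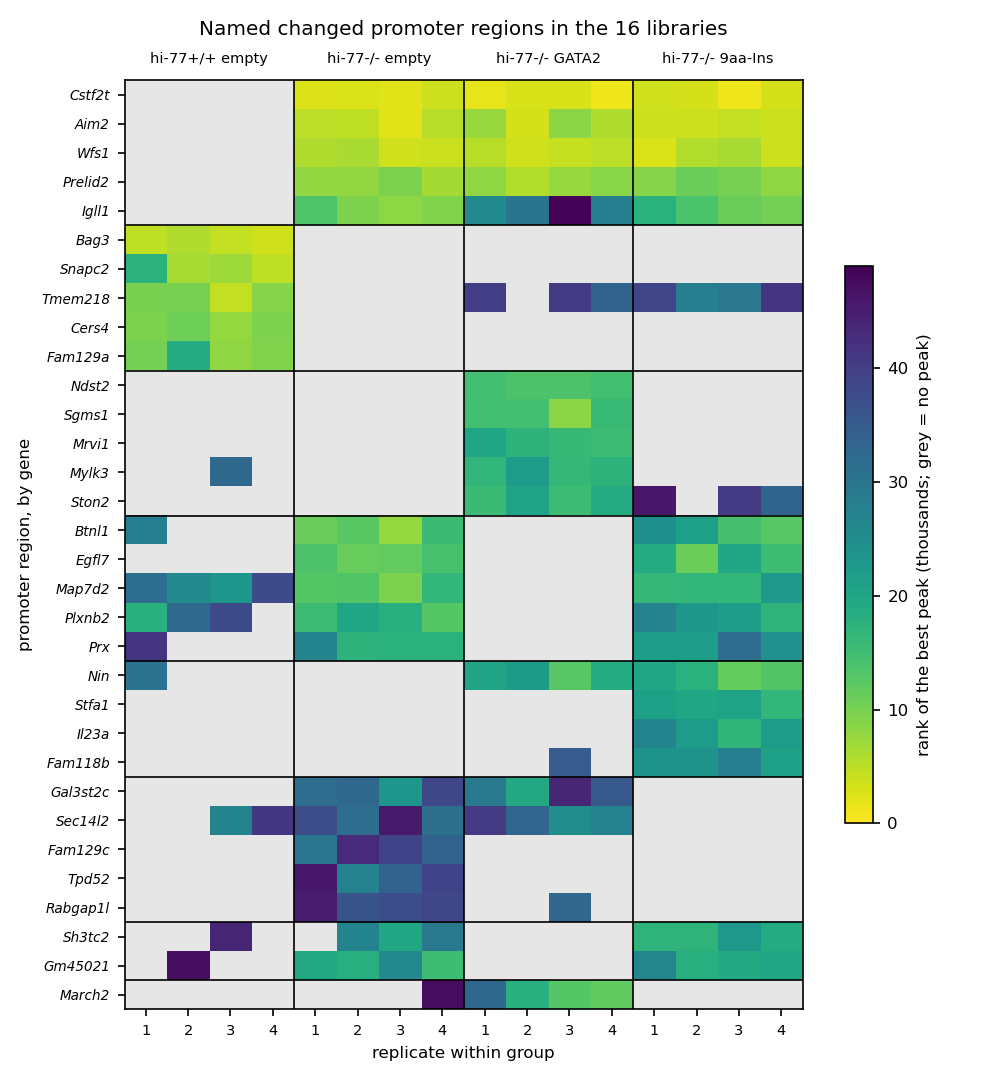
Heat map of 32 named promoter regions gained or lost (rows, by gene) in the 16 libraries (columns, by group), coloured by rank, with grey where the library had no kept peak. The rows at Ndst2, Sgms1 and Mrvi1 are coloured only in the 4 hi-77-/- GATA2 libraries, and the row at Bag3 only in the 4 hi-77+/+ empty libraries.

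Constant promoters were compared by rank. Order within each library over the 21169 regions with a peak in all 16 libraries, of which 9988 were promoter regions, was turned into normal scores and tested with limma, with Benjamini-Hochberg adjustment over the 21169 regions. The coefficient is called the rank score difference and is positive where the region ranked better in the first group. Since regions without a peak in some library were left out, the counts describe the constant promoters and not all members. The share of promoter regions past an adjusted p of 0.05 was 34.7% in hi-77-/- empty against hi-77+/+ empty libraries, 7.34% in GATA2 against hi-77-/- empty, 0.981% in 9aa-Ins against hi-77-/- empty and 6.79% in 9aa-Ins against GATA2 libraries. For the other constant regions it was 48.3%, 24.7%, 5.41% and 28.7%.

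In hi-77-/- empty against hi-77+/+ empty libraries, 1511 constant promoters (15.1%) ranked higher and 1955 (19.6%) lower, against 21.4% and 20.5% of all constant regions. The median rank score difference was -0.03 over promoters and -0.01 over all. Otud1, a deubiquitinase (chr2:19657155-19658574), ranked 5221, 4296, 6309 and 4373 in hi-77-/- empty and 39810, 38343, 31173 and 37944 in hi-77+/+ empty libraries. The groups were far apart, with a rank score difference of 2.92 ± 0.18 (SE, adjusted p = 2.84e-13). The next were Sh2d3c, a signalling adaptor (2.56 ± 0.22), Tlr5, the flagellin receptor (2.54 ± 0.29), Tnni2, a troponin of fast muscle (2.2 ± 0.19), and Ccl2, a chemokine that attracts monocytes (2.2 ± 0.21). Zfp53 (chr17:21488681-21489441) ranked 21817, 35669, 24907 and 42115 in hi-77-/- empty and 1538, 1999, 1559 and 3049 in hi-77+/+ empty libraries, a difference of -2.81 ± 0.23 (adjusted p = 7.77e-11). It was followed by Mast3 (-2.8 ± 0.24), Tmem231 (-2.48 ± 0.18), Phyh (-2.24 ± 0.34) and Clcn3 (-2.19 ± 0.2), of which Mast3, Tmem231 and Clcn3 lie on chromosome 8.

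Ranks on chromosome 8 were lower as a whole in hi-77-/- empty libraries. Its 555 constant promoters had a median difference of -0.51, with 8 higher and 343 lower. Chromosome 19 stood at -0.22, with 18 higher and 114 lower of 385, chromosome X at -0.17, with 13 and 52 of 255, and chromosome 11 at 0.22, with 266 and 70 of 847. In the comparisons among hi-77-/- groups, the chromosome 8 median was 0.06 when GATA2 and 0.02 when 9aa-Ins was set against empty, and -0.05 when the variant was set against GATA2. Without chromosomes 8 and 19, 1267 promoters were higher and 1729 lower. The part of these chromosome-wide shifts in the differences of single promoters was not tested.

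By group of genes, 27 of 81 ribosomal protein promoters ranked higher and 6 lower in hi-77-/- empty libraries (median 0.29), and 0 of 38 histone regions ranked higher and 19 lower (median -0.34). Proteasome genes had 10 higher and 1 lower of 41, heat shock genes 6 and 0 of 14, and Zfp genes 32 and 85 of 259 (median -0.17). The 7 constant chemokine regions had a median of 1.16, with 4 higher and 1 lower. Besides Ccl2 these included Ccl3, which ranked 663, 331, 1019 and 1012 against 9212, 14667, 16332 and 18515 (2.11 ± 0.17, adjusted p = 6.08e-11). Among cell cycle genes 3 of 27 regions were higher and 4 lower. An inner region of Cdkn1a, the inhibitor p21 (chr17:29098566-29099630), ranked 13400, 18312, 12307 and 20875 in hi-77+/+ empty and 2175, 1685, 3461 and 2343 in hi-77-/- empty libraries (1.59 ± 0.15, adjusted p = 6.60e-10). A region of Cdkn2a (chr4:89294367-89295832) went the other way, from 3595, 6208, 5596 and 7929 to 35804, 33303, 30713 and 16741 (-2.13 ± 0.26, adjusted p = 1.64e-07).

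The genes that the study names as repressed or activated by GATA2 were named from data of these cells, so their direction is not independent evidence. Of 15 constant regions of repressed genes, 6 ranked higher and 2 lower in hi-77-/- empty libraries (median 0.44). Pax5, the master factor of B cells (chr4:44704036-44704917), ranked 26148, 18884, 23612 and 14686 in hi-77+/+ empty and 3432, 2170, 2594 and 1648 in hi-77-/- empty libraries (2.07 ± 0.17, adjusted p = 8.92e-11), and its GATA2 difference was -0.01 ± 0.17. Mef2c, a MADS-box factor, ranked 12345, 13523, 11349 and 10693 in hi-77+/+ empty, 360, 1658, 1196 and 3213 in hi-77-/- empty, 10021, 10040, 10733 and 8667 in hi-77-/- GATA2 and 1868, 4017, 1449 and 1088 in hi-77-/- 9aa-Ins libraries. Its hi-77+/+ empty and GATA2 values stood apart from those of the other groups. Of 4 regions of activated genes, 1 was higher and 1 lower. The lower one was S1pr1, a sphingosine phosphate receptor (chr3:115714569-115715711), which ranked 5356, 2307, 1957 and 2093 in hi-77+/+ empty and 19228, 21875, 18794 and 16709 in hi-77-/- empty libraries (-1.85 ± 0.22, adjusted p = 7.35e-08), and its GATA2 difference was 0.03 ± 0.22. The higher one was Csf2rb, the shared receptor chain of interleukin 3 and related cytokines (chr15:78325542-78326489), which ranked 19416, 16432, 12258 and 17097 in hi-77+/+ empty and 9131, 7335, 8292 and 8748 in hi-77-/- empty libraries (0.71 ± 0.17, adjusted p = 1.49e-03). None of the 4 passed the test with GATA2 or with 9aa-Ins against hi-77-/- empty libraries.

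Gata2 itself had 2 constant promoter regions. The inner one (chr6:88198078-88199082) ranked 14885, 17334, 10234 and 17989 in hi-77+/+ empty and 24539, 30692, 23864 and 24617 in hi-77-/- empty libraries, with no overlap (-0.91 ± 0.27, adjusted p = 6.83e-03). With GATA2 it ranked 27080, 20025, 11732 and 17266 (0.58 ± 0.27, adjusted p = 0.145), and it differed by -0.87 ± 0.27 between 9aa-Ins and GATA2 libraries (adjusted p = 1.96e-02). The part of viral reads in these values was not tested. The distal one (chr6:88193388-88194393) had a difference of -0.38 ± 0.34 for the same groups (hi-77-/- empty less hi-77+/+ empty, adjusted p = 0.394).

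In hi-77-/- GATA2 against hi-77-/- empty libraries, 405 constant promoters (4.05%) ranked higher and 328 (3.28%) lower, where all constant regions gave 6.61% and 9.91%. With order taken over promoters alone, 159 were higher and 334 lower. C3ar1, the receptor of complement C3a (chr6:122855945-122856470), ranked 8379, 4613, 6122 and 6363 with GATA2 and 26838, 30737, 17714 and 24643 without (1.71 ± 0.21, adjusted p = 3.22e-07). Plcg1, a phospholipase of receptor signalling (1.69 ± 0.32), Ash2l, a subunit of histone H3 lysine 4 methyltransferases (1.63 ± 0.29), Plekhg5 (1.59 ± 0.3) and Tpst1 (1.55 ± 0.36) followed. The largest difference was the reverse, at Fchsd2 (chr7:101092477-101093570), which ranked 39702, 36761, 26995 and 22849 with GATA2 and 2611, 2227, 989 and 3110 without (-2.85 ± 0.19, adjusted p = 9.89e-12). The costimulatory receptor Cd40 (-1.89 ± 0.24), Tnni2 (-1.83 ± 0.19) and Sh2d3c (-1.82 ± 0.22) were also lower. Fchsd2 had a further promoter region with a peak in all 16 libraries.

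Genes the study names as repressed by GATA2 had 0 higher and 7 lower of 15 regions (median -0.59, beside a median of 0.07 over all constant promoters and 0.04 over all constant regions). They included Mef2c (-1.4 ± 0.17, adjusted p = 3.06e-07), Trem1 (-1.21), Tifab (-1.2) and Fn1 (-1.25). Chemokines had 0 higher and 3 lower, namely Ccl2, Ccl3 and Ccl9. Of 9 constant regions of erythroid markers 1 was higher and 0 lower, at Epor, the erythropoietin receptor (0.67 ± 0.19, adjusted p = 1.40e-02). Of 2 regions of megakaryocyte markers 1 was higher and 0 lower, at Itga2b, an integrin of megakaryocytes and mast cells (0.53 ± 0.17, adjusted p = 2.35e-02). Progenitor markers had 1 higher and 2 lower of 21 regions, and monocyte and dendritic markers 0 and 1 of 10. Itga2b ranked 2969, 2074, 3578 and 3570 with GATA2, better than in every hi-77-/- empty library (8456, 7267, 5248 and 4848). It was also called higher in hi-77-/- empty against hi-77+/+ empty libraries.

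In hi-77-/- 9aa-Ins against hi-77-/- empty libraries, 70 constant promoters (0.701%) ranked higher and 28 (0.28%) lower, where all constant regions gave 1.9% and 1.42%. At an unadjusted p under 0.05 there were 912. Hsd11b1, which regenerates active glucocorticoid (chr1:193242145-193242759), ranked 5628, 4385, 4725 and 4468 with 9aa-Ins and 20487, 16917, 25303 and 21438 without (1.67 ± 0.22, adjusted p = 9.30e-05). Tmem63a (1.45 ± 0.31), Zcchc8 (1.4 ± 0.3), Pex16 (1.16 ± 0.27) and Gm17571 (1.13 ± 0.26) were the next. Among the lower regions, Adgrg1, an adhesion receptor of progenitors (chr8:94983355-94985859), ranked 5778, 6511, 7688 and 8388 against 2341, 1796, 1146 and 1708 (-0.95 ± 0.14, adjusted p = 1.74e-04). Ank1, the ankyrin of red cells, ranked 31748, 19913, 27735 and 20064 against 15013, 20792, 6503 and 8116 (-1.07 ± 0.24, adjusted p = 9.43e-03), and these groups overlapped. Epha4 (-0.93 ± 0.27, adjusted p = 4.50e-02), Tgfb3 (-0.76 ± 0.2, adjusted p = 2.31e-02) and Zdhhc14 (-0.7 ± 0.16) completed the list. The Epha4 call was lost without any 1 of the 8 libraries compared except 9aa-Ins replicate 1 (adjusted p = 6.97e-02 to 1.82e-01). The call of Tgfb3 was lost without hi-77-/- empty replicate 2 or 3 or 9aa-Ins replicate 3 or 4 (adjusted p = 5.93e-02 to 1.22e-01), and that of Ank1 without hi-77-/- empty replicate 3 (7.04e-02) or 9aa-Ins replicate 1 (5.91e-02). Of 15 regions of repressed genes 0 were higher and 1, Tgfb3, was lower. The counts depended on single libraries. They fell to between 38 and 46 higher without hi-77-/- empty replicate 1 or 3 or any 1 of the hi-77-/- 9aa-Ins replicates 1 to 4, and to between 10 and 14 lower without hi-77-/- empty replicate 1 or 3 or hi-77-/- 9aa-Ins replicate 2, 3 or 4.

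In hi-77-/- 9aa-Ins against hi-77-/- GATA2 libraries, 332 constant promoters (3.32%) ranked higher and 346 (3.46%) lower, against 11.1% and 7.3% of all constant regions. With order over promoters alone, 287 were higher and 128 lower, and without hi-77-/- 9aa-Ins replicate 3 or 4 the lower ones numbered 220 and 227. Fchsd2 was again the largest, at 3352, 4794, 5472 and 4282 with 9aa-Ins (2.38 ± 0.19, adjusted p = 7.09e-10). Ikbke, a kinase of interferon signalling (2.2 ± 0.33), Tinagl1 (2.07 ± 0.32) and Cd40 (1.75 ± 0.24) followed. Atp2b4, a calcium pump of the plasma membrane (chr1:133800583-133802152), ranked 413, 719, 506 and 629 with 9aa-Ins and 10215, 7963, 7169 and 7032 with GATA2 (1.6 ± 0.14, adjusted p = 1.04e-09). Lower were Ank1 (-2.03 ± 0.24), which ranked 2364, 3971, 4061 and 6390 with GATA2 and showed no overlap, Tfr2, a transferrin receptor of red cell precursors (-1.88 ± 0.42), the phosphatase Ptpre (-1.81 ± 0.24), C3ar1 (-1.74 ± 0.21) and Plekhg5 (-1.55 ± 0.3). Regions of repressed genes were higher in 6 of 15 cases and lower in 0, and chemokines higher in 4 of 7 and lower in 0. Of 4 regions of activated genes 1, Csf2rb, was higher (0.51 ± 0.17, adjusted p = 3.61e-02) and 0 lower. It ranked 11751, 6661, 5262 and 8111 with 9aa-Ins and 13530, 12147, 16694 and 10169 with GATA2, so that the groups overlapped.

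Promoter regions were rich in G, C and CG pairs. In 300 bp windows around the median summit, GC content had a median of 60.7% in promoter regions, 64% in those open in all libraries and 48.7% in other regions. The ratio of observed to expected CG pairs was 0.694, 0.81 and 0.203, and it was 0.328 in promoter regions of 1 library. A ratio over 0.6 was found in 58% of promoter windows, 78.7% of constant ones and 3.78% of other windows. Promoters gained with GATA2 had a median ratio of 0.222 and those lost 0.201, so that both were as poor in CG pairs as other regions. In hi-77-/- empty against hi-77+/+ empty libraries the medians were 0.287 for gained and 0.484 for lost regions.

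The share of constant regions rose from step to step of CG content. In windows with a ratio under 0.2, 0.2 to 0.4, 0.4 to 0.6, 0.6 to 0.8 and over 0.8, 18.9, 26.1, 47.1, 76.1 and 84.2% of promoter regions had a peak in all 16 libraries, and 11.5, 15.7, 22.1, 33.8 and 47.5% of other regions. In every step the promoter value was the higher one.

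Short words of known factors were counted in the same windows on both strands, with a window counted once per word set. The Sp/KLF word GGGCGG occurred in 53.8% of promoter windows, 69.9% of constant ones and 8.7% of other windows, and the ETS word CCGGAAG in 13.7%, 20.3% and 2.09%. The CCAAT box was found in 35% of promoter and 30.4% of other windows. GATA words occurred in 20.4% of promoter windows, 14.6% of constant ones and 40.3% of other windows. No match says only that these letters are not in the window.

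Promoters that changed differed in their words by comparison. GATA words were present in 83.8% of the 80 promoter windows gained with GATA2, and in 20.3% of the 123 lost, beside 20.4% of all promoter windows. Over all regions gained with GATA2 the share was 83.9%. In promoters lost between 9aa-Ins and GATA2 it was 82.9%, in those gained with 9aa-Ins against empty 33.9%, and in those gained and lost in hi-77-/- empty against hi-77+/+ empty libraries 22% and 28.5%. The PU.1-type word GAGGAAG showed another order, with 16.7% of all promoter windows, 40.7% of those lost with GATA2, 33.5% of those gained and 9.62% of those lost in hi-77-/- empty against hi-77+/+ empty libraries, and 39% of those gained between 9aa-Ins and GATA2. The shares were 22.4% in other regions and, over all changed regions, 34.4% lost with GATA2, 34.2% gained and 12.4% lost in hi-77-/- empty against hi-77+/+ empty libraries, and 31.7% gained between 9aa-Ins and GATA2. The C/EBP words TTGCGCAA and TTGCACAA were in 1.3% of all promoter windows and 8.93% of the 56 gained with 9aa-Ins against empty, beside 9.25% of all regions gained there. The windows printed above for Ndst2, Sgms1, Mylk3 and Cpa3 hold GATA words and that for Gata1 holds none.

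**Figure D5:**
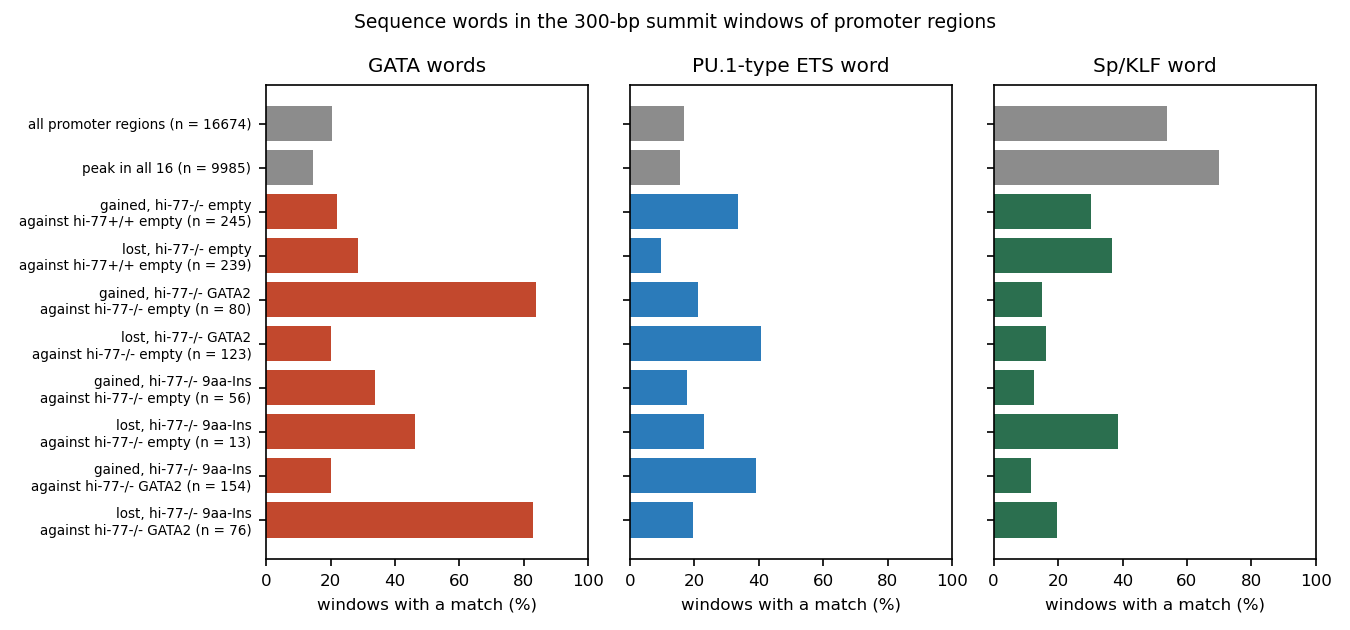
Percent of 300 bp windows that hold a GATA word, the PU.1-type ETS word GAGGAAG or the Sp/KLF word GGGCGG, for all promoter regions, constant ones and the promoter regions gained or lost in each comparison. GATA words stand highest in promoters gained with GATA2 (83.8%) and in those lost between 9aa-Ins and GATA2 (82.9%).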

How the data were processed

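ATAC-seq was done on 16 libraries, 4 of each of 4 groups. Per the labels and the study's methods, the authors trimmed reads with Trim Galore 0.4.1, aligned them to mm10 with Bowtie2 2.2.5, removed duplicates with Picard 2.26.0 and ran MACS2 on each library alone for peaks (version not given in the sources used here). The deposited peak lists give a fold enrichment over a background that is constant within a library (a linear ratio), −log10 p and −log10 q values, and an integer score, which is 10 times the −log10 q. Since MACS2 set these against each library's own background, −log10 p was used only as an order, and fold only to break ties. No read totals were given, so depth is unknown, and values have no interval for counting error. Peaks on other chromosomes were left out.

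Peaks were joined, measured and compared with Python 3.11.15, numpy 2.4.6, pandas 2.3.3, scipy 1.17.1 and pysam 0.24.0, and figures were drawn with matplotlib 3.10.9. Rank differences were fitted with limma 3.58.1 in R 4.3.3, with a trend and 1 spread over all 4 groups, and adjusted after Benjamini and Hochberg. The scripts were tested on simulated data. The annotation was checked against the genome by the first 10 bases of each transcript, which matched for 58274 of 58504 protein-coding transcripts (99.6%). From the sequence counts, 34 windows with an undetermined base were left out. A region took the name of the protein-coding gene with the TSS nearest its middle. For each comparison and direction the text names up to 5 changed regions of best median rank and up to 5 of largest rank score difference, besides the 5 widest and 5 best-ranked constant promoters, up to 4 examples of a gene list and the genes the study names. A few regions that this rule names are not reported here. The members, gene lists and tests were chosen with earlier results of these data known. Replicates are biological per the study, and p-values measure the spread between them. Same-numbered libraries of different groups did not deviate together (r of -0.0521 to 0.105, over 0.1 in 1 of 24 pairs), so replicate numbers were not used as pairs. Alternatives were the number of peaks kept, the distance to a TSS, the overlap needed, wide peaks left out, other orders, chromosomes 8 and 19 left out, and each library left out in turn.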

Additional observations from a re-analysis of the deposited data

Results flagged for a closer look

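The number of promoter regions with a peak in hi-77-/- GATA2 replicate 1 was 11897, apart from the other 3 libraries of its group, which had 12362 to 12445. The gap to the nearest library was 0.85 of the group's range, above Dixon's 95% critical value for a group of 4. It was the only such case among 32 group values tested, and about 1 in 20 would pass by chance. The same library had the shortest deposited list (49852 peaks) and the lowest −log10 p at its last kept peak (5.35). Its median peak width in promoter regions, by the widest peak of each region, was 365 bp.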

How the results depend on the processing

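Promoter regions were wider, of better rank and more often with a peak than other regions with all deposited peaks, with 25000 peaks, within 500 bp of a TSS and against regions over 10 kb from any TSS. Counts of gained and lost regions moved more. In the order of the report (enhancer deletion, GATA2, 9aa-Ins and, last, 9aa-Ins set against GATA2; gained/lost), they were 71/104, 41/50, 19/0 and 40/16 where absence from the full list was required, 421/447, 219/271, 157/23 and 350/190 within 3 kb of a TSS, and 145/110, 26/50, 18/6 and 64/24 for regions that hold a TSS base, an alternative added after seeing the data. Peaks covering 50% of a region gave 418 lost, 53/201, 176/4 and 535/38. All deposited peaks gave 162/456 in the first, 163/0 in the third and 333/26 in the fourth comparison. Within 500 bp there were 32/7 in the third and 102 gained in the fourth, with 25000 peaks 7 and 39 lost, and with peaks narrower than 1 kb 77 and 216 lost. The number of open promoter regions was 16186, 13988, 13564 and 16111 with all deposited peaks and 9979, 9931, 9954 and 9976 with 25000 peaks (hi-77+/+ empty, hi-77-/- empty, GATA2, 9aa-Ins). Order over promoters alone gave 159 higher with GATA2, 37/10 higher/lower with 9aa-Ins and 128 lower in the fourth comparison. With the replicate block the rank counts were 1505/1951, 391/325, 67/29 and 329/329, within 1.5 times the counts without it. Leaving out 1 library at a time gave 263 to 301 gained and 270 to 303 lost, 90 to 111 and 139 to 167, 64 to 85 and 15 to 28, and 172 to 212 and 83 to 113. For rank it gave 1278 to 1553 higher and 1679 to 2003 lower, 281 to 451 and 273 to 342, 38 to 81 and 10 to 35, and 267 to 346 and 220 to 371. Named gained or lost regions no longer met the rule in 77 of 304 cases, named rank differences in 3 of 233 (Ank1, adjusted p = 5.27e-02, and Epha4, 7.50e-02 and 5.50e-02) and in 13 of 640 with a library left out (Ank1 2, Epha4 7, Tgfb3 4). The cause was not tested for any of these, beyond what each setting leaves out. Depth is unknown, so an absent peak means only that it was not among those kept.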
